A study of Mus musculus with 12 samples.

Results

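The 98 genes described here encode subunits of the oxidative phosphorylation machinery, and were taken by their names from the 32245 rows of the deposited FPKM table. A row was taken if its symbol began with mt-, Ndufa, Ndufb, Ndufc, Ndufs, Ndufv, Uqcr, Atp5 or Cox4 to Cox8, or was Sdha, Sdhb, Sdhc or Sdhd. Genes of the Ndufaf group and symbols with -ps were left out, which removed 9 rows. The rule does not take in every subunit, since Cyc1, the cytochrome c1 of complex III, lies outside it. Of the 98 genes, 85 lie in the nuclear genome and 13 are the mRNAs of the mitochondrial genome, and all 98 were found in the count table. The study sequenced RNA of E14Tg2a.IV mouse embryonic stem cells, an established feeder-independent line. There were 3 genotypes, wild type (WT), a double knockout of Smad2 and Smad3 (S23DKO) and a knockout of Smad4 (S4KO). Each was sampled as undifferentiated stem cells (day 0) and as embryoid bodies 4 days after LIF, the cytokine that keeps the cells undifferentiated, was removed (day 4). Each of the 6 groups had 2 libraries, and the labels do not say whether these came from separate cultures or how many clones each knockout represents, so that p-values measure only the spread between these libraries.

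Oxidative phosphorylation passes electrons from NADH and succinate through complexes I to IV of the inner mitochondrial membrane to oxygen, and complex V, the ATP synthase, uses the proton gradient that complexes I, III and IV build. Complexes I, III, IV and V are assembled from subunits of both genomes, whereas complex II is encoded in the nucleus alone. Mitochondrial mRNAs are cut from long polycistronic transcripts made by a dedicated polymerase, and nuclear subunit genes are transcribed one by one, many of them from promoters that bind NRF1, ETS family factors such as GABPA, YY1 or the estrogen-related receptors. Among the Smad proteins, Smad2 and Smad3 act downstream of Nodal and activin receptors, and Smad4 joins them and the Smads of the BMP branch in the nucleus. Nuclear members were grouped as 36 of complex I, 4 of complex II, 8 of complex III, 20 of complex IV and 17 of complex V, with Ndufa4 and its relative Ndufa4l2 counted in complex IV. The mitochondrial mRNAs encode 7 subunits of complex I, 1 of complex III, 3 of complex IV and 2 of complex V.

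Total counts ran from 31566376 to 55806858 per library, and log-scale correlations between the 2 libraries of a group from 0.966 to 0.988. The transcripts of the targeted genes were not near 0 in the knockouts: Smad4, for example, stood at 41.5 and 47.1 CPM (counts scaled to the library total) in WT at day 0 and at 97.8 and 80.1 in S4KO at day 0. A gene total does not show which exons are present, so the labels could not be checked this way, and the groups are named below as labelled. Hprt, which the E14Tg2a line was isolated as lacking, stood at 0.252 to 0.726 CPM in the 8 WT and S23DKO libraries and at 172 to 207 CPM in the 4 S4KO libraries. Whether a difference of S4KO from the other genotypes belongs to the Smad4 knockout or to the line it was made in cannot be told apart. Markers of naive pluripotency (10 genes) summed to 1205.5 to 2746.0 CPM at day 0 and to 290.4 to 1436.1 CPM at day 4. They were present in every day-0 library, but the ranges overlapped, the first S4KO day-4 library (1436.1 CPM) lying above the second S23DKO day-0 library (1205.5 CPM). The 8 epiblast and primitive streak markers summed to 22.7 to 68.8 CPM at day 0. At day 4 the sums were 922.2 and 916.9 CPM for WT, 102.1 and 96.0 CPM for S23DKO and 90.1 and 300.7 CPM for S4KO. The 9 extraembryonic endoderm markers summed to 704.3 and 781.9 CPM in WT at day 4, against 36.2 to 195.9 CPM in the knockouts. The 8 trophectoderm markers summed to 628.7 and 643.5 CPM in S23DKO at day 4, against at most 114.1 CPM in WT and S4KO. The 8 fibroblast markers summed to 10.6 to 60.4 CPM. The part of these cell types in the results below was not tested, and in bulk RNA fewer cells of a type and less RNA per cell cannot be told apart.

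The promoter of a nuclear member is shown first, because 4 binding motifs were more frequent there than over all genes, and the choice by name did not use them. Windows of 300 bases, from 250 before the transcript start to 50 after it, were taken from RefSeq annotation of GRCm38.p6 and were found for 68 of the 85 nuclear genes. An NRF1 motif (GCGC, any 1 base, then TGCGC, on either strand) occurred in 25% of these 68 genes and in 5.19% of all 27025 genes with a window. An ETS motif (CCGGAAG) occurred in 25% against 9.93%, a YY1 motif (AAGATGGC) in 13.24% against 3.19% and an estrogen-related receptor motif (TCAAGGTCA) in 2.94% against 0.47%. At least 1 of the 4 motifs was found in 37 of the 68 genes (54.41%) and in 16.78% of all genes. The 4 windows below show each motif in its place, with motif letters on either strand in capitals; they are those of Cox6a1, the common form of a small complex IV subunit, Ndufs6, a zinc-binding complex I subunit, Atp5j, coupling factor 6 of the ATP synthase, and Sdhd, a membrane anchor of complex II. All 4 genes lie on the minus strand, and the windows are chr5:115348909-115349208, chr13:73328433-73328732, chr16:84834927-84835226 and chr9:50603800-50604099 in that order.
Cox6a1: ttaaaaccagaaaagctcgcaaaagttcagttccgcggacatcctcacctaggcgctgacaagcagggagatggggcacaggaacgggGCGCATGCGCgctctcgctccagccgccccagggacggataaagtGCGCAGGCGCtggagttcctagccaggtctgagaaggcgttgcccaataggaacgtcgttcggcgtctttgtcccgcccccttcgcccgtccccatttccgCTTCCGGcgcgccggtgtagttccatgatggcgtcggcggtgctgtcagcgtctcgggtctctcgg
Ndufs6: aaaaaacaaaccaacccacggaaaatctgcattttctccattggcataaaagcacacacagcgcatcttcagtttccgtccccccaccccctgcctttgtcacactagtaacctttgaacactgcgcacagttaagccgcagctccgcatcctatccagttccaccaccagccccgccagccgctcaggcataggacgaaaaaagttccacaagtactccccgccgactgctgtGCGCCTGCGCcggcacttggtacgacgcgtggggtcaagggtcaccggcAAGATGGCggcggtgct
Atp5j: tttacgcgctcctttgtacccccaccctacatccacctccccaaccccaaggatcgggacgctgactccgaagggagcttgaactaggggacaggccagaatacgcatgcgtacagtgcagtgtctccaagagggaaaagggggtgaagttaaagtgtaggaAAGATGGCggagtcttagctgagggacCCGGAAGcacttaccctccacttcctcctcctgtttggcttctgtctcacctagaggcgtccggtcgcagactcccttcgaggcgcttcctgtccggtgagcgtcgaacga
Sdhd: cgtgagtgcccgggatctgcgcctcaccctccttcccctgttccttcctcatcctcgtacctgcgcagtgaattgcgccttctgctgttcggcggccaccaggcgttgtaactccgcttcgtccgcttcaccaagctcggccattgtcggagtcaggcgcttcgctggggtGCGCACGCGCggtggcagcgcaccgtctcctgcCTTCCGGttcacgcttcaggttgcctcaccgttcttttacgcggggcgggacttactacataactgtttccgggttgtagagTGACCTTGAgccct
A match describes letters in a window, not binding. The Cox6a1 window holds the NRF1 motif at 2 places and an ETS motif on the reverse strand, that of Ndufs6 an NRF1 and a YY1 motif, that of Atp5j a YY1 and an ETS motif, and that of Sdhd an NRF1, an ETS and an estrogen-related receptor motif. The first 3 of these genes fell in WT cells between day 0 and day 4, by 2.28 ± 0.35 (Cox6a1), 2.04 ± 0.29 (Ndufs6) and 1.26 ± 0.23 (Atp5j) on the log2 scale (± SE), whereas Sdhd, with a log2 difference of -0.27, was not called. Over the members the median log2 difference was -1.71 in the 37 genes with any motif and -1.65 in the 30 tested genes with none. By motif it was -1.67 with and -1.69 without NRF1, -1.71 and -1.68 for ETS, and -1.77 and -1.68 for YY1, whereas the 2 genes with the estrogen-related receptor motif had a median of -0.59 against -1.69 in the other 65.

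Between day 0 and day 4 of WT the nuclear members took a smaller share of all counts, while the mitochondrial mRNAs did not. The 85 nuclear members together held 2.14% and 1.79% of counts in the WT libraries at day 0 and 0.873% and 0.989% at day 4. In S23DKO they held 1.16% and 1.19% at day 0 and 0.848% and 0.842% at day 4. In S4KO they held 1.12% and 1.39% at day 0 and 0.974% and 0.917% at day 4. The WT day-0 libraries were thus the highest of the 12, and in each genotype both day-4 libraries lay below both day-0 libraries. The 13 mitochondrial mRNAs held 2.13% and 2.34% in WT at day 0, 3.93% and 2.65% in WT at day 4, 2.73% and 6.74% in S23DKO at day 0, and 2.00% and 2.18% in S23DKO at day 4. In S4KO they held 2.82% and 3.38% at day 0 and 2.25% and 1.87% at day 4. In both knockouts the day-4 libraries lay below the day-0 libraries, and in WT they lay above them. The second S23DKO library of day 0 stood far above the rest, and mt-Co1 alone made 53.7% of its mitochondrial counts, against 28.3% to 41.7% in the other 11 libraries; without mt-Co1 the mitochondrial share of the 2 S23DKO day-0 libraries was 1.84% and 3.12%.

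The ratio of mitochondrial to nuclear counts of the members was 0.999 and 1.31 in WT at day 0 (mean 1.15 ± 0.218, SD, n = 2) and lay above 2 in every other library. It was 4.50 and 2.68 in WT at day 4, 2.35 and 5.67 in S23DKO at day 0, 2.35 and 2.59 in S23DKO at day 4, 2.52 and 2.44 in S4KO at day 0, and 2.31 and 2.04 in S4KO at day 4. The 2 WT day-0 libraries therefore did not overlap any other group, and of the other 5 groups S4KO at day 4 lay lowest. With 2 libraries against 2, the smallest p an exact permutation test can give is 0.333, so no test of these sums was made.

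**Figure D1:**
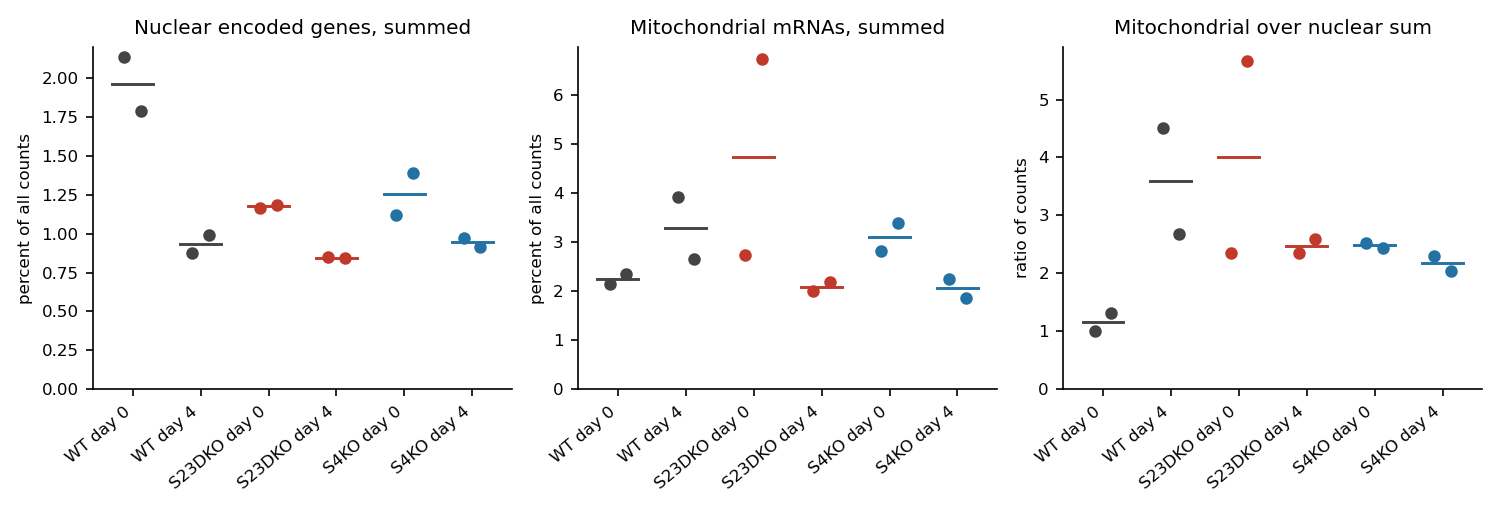
Share of all counts (percent) held by the 85 nuclear members and by the 13 mitochondrial mRNAs, and the ratio of the mitochondrial to the nuclear share, for each of the 12 libraries. Dots are libraries and horizontal bars are group means; the ratio lies at 0.999 and 1.31 in WT at day 0 and at 2.04 to 5.67 in the other 10 libraries.

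In WT cells nearly the whole nuclear set was lower at day 4 than at day 0. Of the 85 nuclear members, 84 passed the filter on low counts (Cox8b, a muscle form of a complex IV subunit, had 14 counts in all), and 78 of these 84 fell, by edgeR's quasi-likelihood test with a Benjamini-Hochberg adjusted p below 0.05. Over all 18693 genes tested, 19.9% fell and 23.8% rose. The median log2 difference of the 84 genes was -1.65, against 0.08 over all genes tested, and 83 of them lay below 0. By complex, 35 of 36 genes of complex I fell (median -1.68), 2 of 4 of complex II (-0.75), 6 of 8 of complex III (-1.42), 18 of 19 of complex IV (-1.89) and all 17 of complex V (-1.26).

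Among called nuclear members with at least 5 CPM in the higher group, the 4 largest drops were in small subunits of complex III and an accessory subunit of complex I. Cox6a2, which fell further in the fit, and Cox7b2, which fell further than the last of these 4, were below that level. Uqcrq, a small subunit of complex III next to cytochrome b, stood at 428 and 227 FPKM (a level per transcript length and library size) at day 0 and at 23.6 and 51.5 FPKM at day 4. It fell by 3.22 ± 0.53 on the log2 scale (adjusted p = 0.001002, edgeR). Uqcr10, another small complex III subunit, stood at 514 and 359 FPKM at day 0 and at 45.3 and 108 FPKM at day 4, a fall of 2.75 ± 0.40. In both genes the lower day-0 library was still more than 2 times the higher day-4 library. Ndufa11, an accessory subunit in the membrane arm of complex I, went from 369 and 273 FPKM to 26.5 and 92.0 FPKM and fell by 2.60 ± 0.48. Uqcr11, the smallest part of complex III, went from 383 and 272 FPKM to 32.2 and 113 FPKM and fell by 2.46 ± 0.55. In all 4 genes the 2 day-4 libraries differed by more than 2 times, the first being the lower, yet the days did not overlap.

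**Figure D2:**
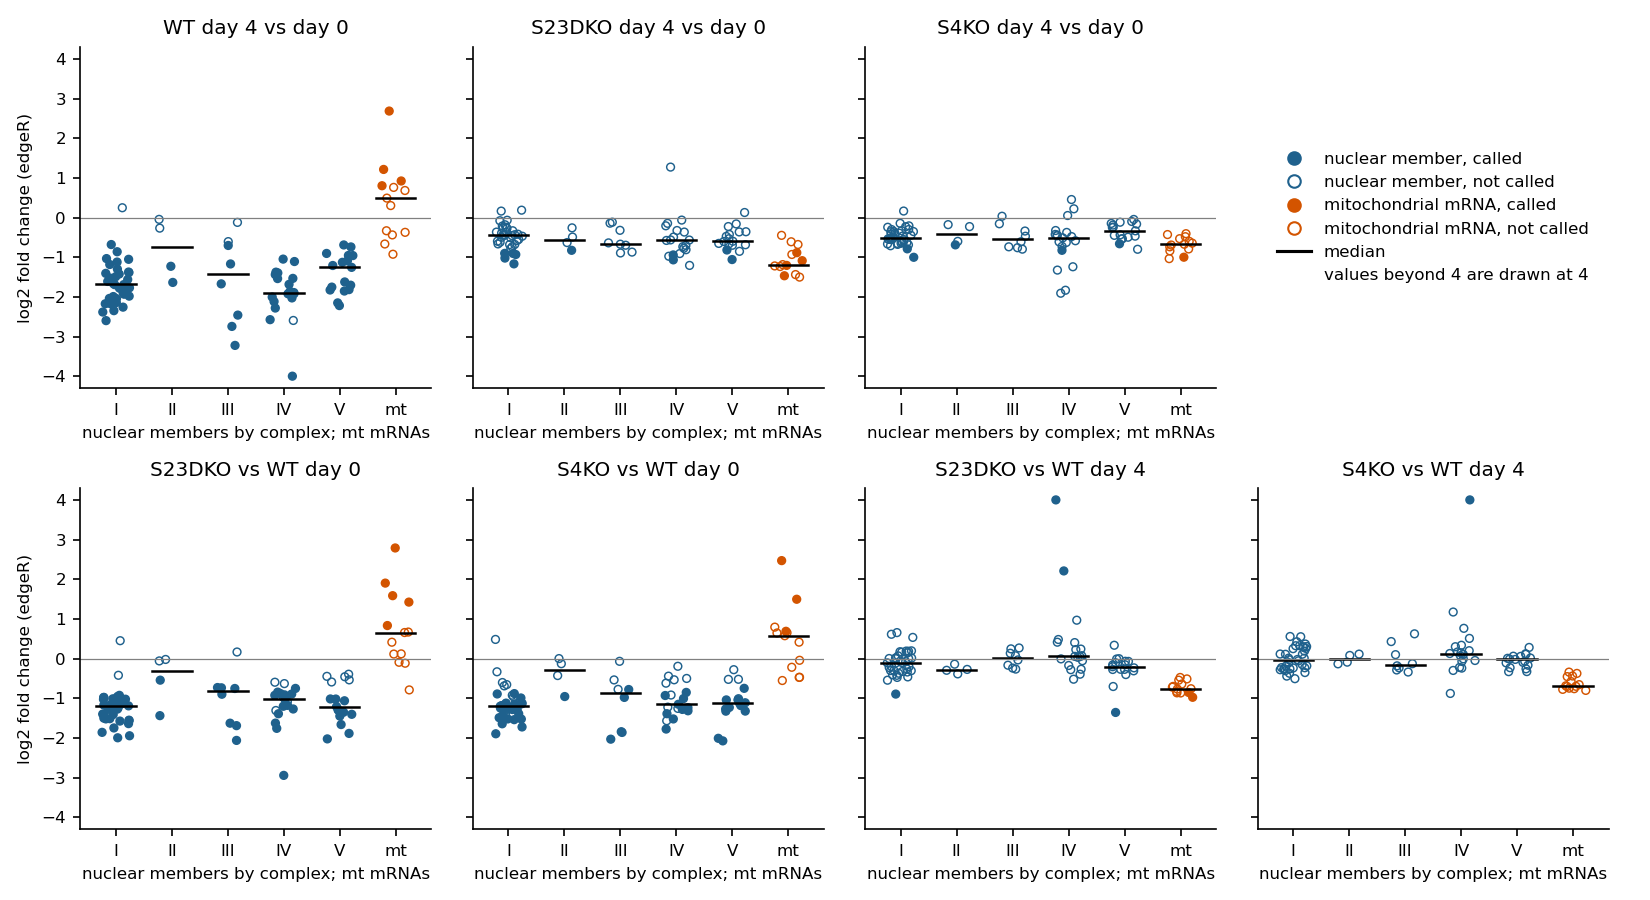
Log2 difference of each nuclear member and mitochondrial mRNA that passed the filter on low counts, by complex, in the comparisons between days and between genotypes; values beyond 4 in either direction, which only Cox6a2 had, are drawn at 4. In WT day 4 against day 0 all but 1 of the 84 nuclear members lie below 0. At day 4 the nuclear members of the knockouts lie around 0 against WT. The mitochondrial mRNAs lie below 0 there (medians -0.76 in S23DKO and -0.69 in S4KO).

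In complex II only the smaller catalytic subunit and 1 membrane anchor fell. Sdha, the flavoprotein that oxidises succinate, stood at 78.5 and 85.3 FPKM in WT at day 0 and at 97.9 and 88.1 FPKM at day 4. Its 12 values lay between 78.5 and 97.9 FPKM and its log2 difference in WT was -0.05 ± 0.17. Sdhd, the small anchor, stood at 112 and 107 FPKM at day 0 and at 109 and 104 FPKM at day 4, and was not called. Sdhb, the iron-sulfur subunit, stood at 183 and 170 FPKM at day 0 and at 49.8 and 82.9 FPKM at day 4, a fall of 1.64 ± 0.26. Sdhc, the larger anchor, stood at 46.0 and 43.8 FPKM at day 0 and at 22.3 and 21.8 FPKM at day 4, a fall of 1.23 ± 0.18. The groups overlapped or nearly met in Sdha and Sdhd and were well apart in Sdhb and Sdhc. Transcript lengths implied by counts over FPKM were 2880 bases for Sdha, 1243 for Sdhd, 1154 for Sdhb and 3008 for Sdhc. The median of the nuclear members was 749.3 bases. Ndufs1 (2534 bases) and Uqcrc2 (1910 bases), of other complexes, were long and not called either. The part of length in the complex II values was not tested.

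The other members that were not called in WT were Ndufs1, Uqcrc2, Uqcrh and Cox8c. Ndufs1, the largest core subunit of complex I, was the single nuclear member with a fitted difference above 0, with 38.8 and 45.4 FPKM at day 0 and 68.6 and 51.0 FPKM at day 4 (log2 difference 0.25 ± 0.21). Uqcrc2, a core protein of complex III, stood at 102 and 123 FPKM and then at 137 and 104 FPKM, with overlapping groups and a log2 difference of -0.12 ± 0.20. The fit scales the libraries by TMM and the printed levels do not carry that scaling, so that for Sdha and Uqcrc2, whose mean levels were higher at day 4 (267 against 236 CPM and 229 against 215 CPM), the fitted sign is set by the scaling. Uqcrh, the hinge protein that holds cytochrome c1, had a difference of -0.61 ± 0.24 (adjusted p = 0.05816, edgeR). Cox8c, a testis form of a complex IV subunit, was near 0 in all libraries, with at most 1.33 FPKM.

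Transcript length moved with these differences in all genes, and the nuclear members are short. The length implied by counts over FPKM had a median of 749.3 bases in the nuclear members and of 2665 bases in all genes. Among all genes tested, the median log2 difference in WT between the days was -1.40 for genes of up to 500 bases, -1.13 for 500 to 1000, -0.82 for 1000 to 1500, -0.41 for 1500 to 2000, -0.06 for 2000 to 3000, 0.47 for 3000 to 5000 and 1.14 above 5000 bases. The nuclear members had medians of -2.01 (9 genes), -1.72 (50 genes), -1.18 (15 genes), -1.01 (6 genes) and -0.05 (3 genes) in the first 5 of these classes, and 1 gene in the sixth had -1.23. In each of the first 4 classes the members thus lay lower than all genes of that length, and in the fifth they did not. Genes of up to 1000 bases took 19.4% and 14.7% of counts in the WT day-0 libraries and 7.24% to 11.1% in the other 10.

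With counts corrected for a trend with length and GC content in each library, the drop in WT was smaller and still called for most members. With exon lengths of the GENCODE M21 annotation 68 nuclear members were lower (median -1.21, against -0.11 over all genes). With the length implied by counts over FPKM 56 were (median -0.77, against -0.10 over all genes). Ribosomal protein genes, which are short too, held 14.7% and 10.8% of counts in WT at day 0 and 4.90% to 7.65% elsewhere, and 84 of 85 tested fell. Whether the length trend belongs to the cells or to the libraries cannot be told apart. Leaving out the first WT day-0 library lowered the number of nuclear members called to 59 of 84, and it lay at up to 78 without any other library.

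**Figure D3:**
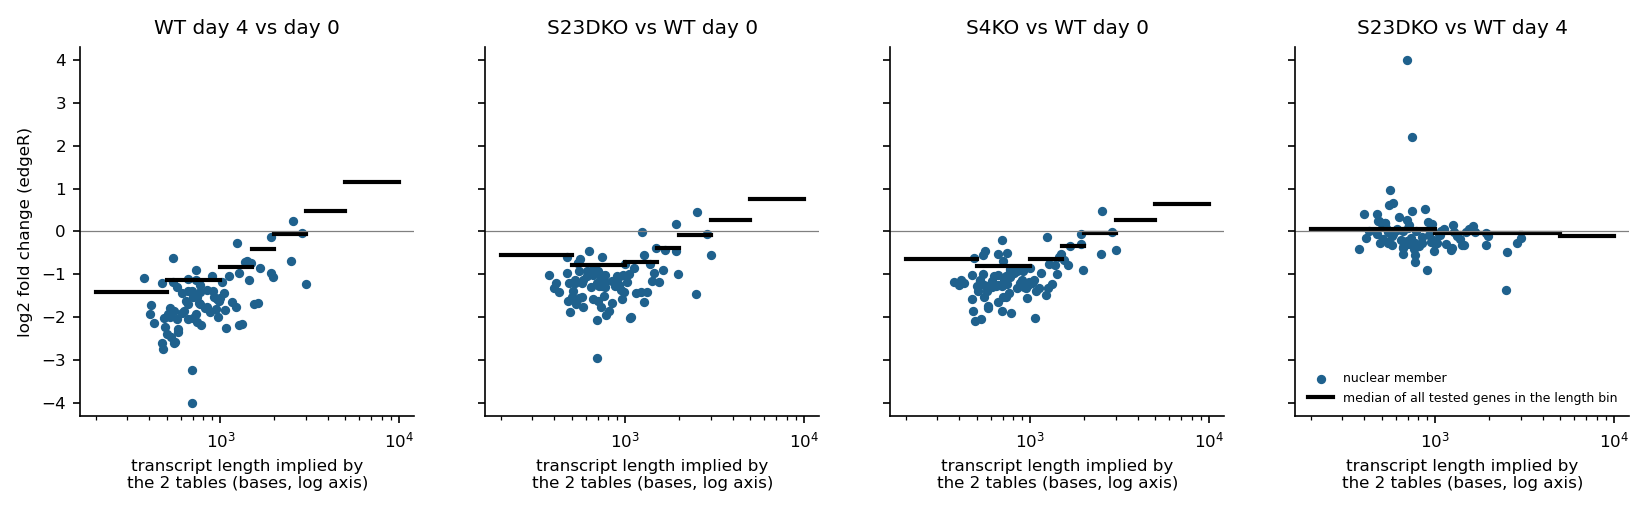
Log2 difference of WT day 4 against day 0 (vertical) against transcript length implied by counts over FPKM (horizontal, log scale, bases), with the nuclear members as points and the median of all genes in each length class as bars; the open-ended classes are drawn from 200 and to 10000 bases. Most members lie below the median of all genes of their length, and Cox6a2, beyond -4, is drawn at -4.

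In the knockouts fewer nuclear members differed between the days, in the same direction as in WT. In S23DKO 10 of 84 fell (over all genes 3.46% fell and 3.57% rose), with a median of -0.54, and 80 lay below 0. In S4KO 5 of 84 fell (over all genes 3.81% fell and 5.08% rose), with a median of -0.47, and 79 lay below 0. All 10 and all 5 were among the 78 that fell in WT, which is 12.8% and 6.41% of the WT list. The WT list holds 78 of the 84 members, so nearly any short list of members would lie within it. Altogether 76 of the 84 lay below 0 in all 3 genotypes, whose day comparisons share no library. With nearly all members below 0 in each genotype, a high number here was largely set in advance.

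The 3 genes that fell in all 3 genotypes were Ndufb4, Sdhc and Atp5b. In S4KO the call was lost in 7 of 21 alternatives for Ndufb4, all of them libraries left out. It was lost in 9 for Sdhc, the fit without a filter among them. For Atp5b it was lost in 11, the replicate block, implied length and limma among them. In S23DKO the calls were lost in 3, 4 and 3 alternatives, all of them libraries left out. Ndufb4, an accessory subunit at the membrane arm of complex I, stood at 88.0 and 75.7 FPKM in WT at day 0 and at 22.6 and 26.0 FPKM at day 4. In S23DKO it stood at 39.8 and 56.5 FPKM and then at 21.4 and 24.3 FPKM, and in S4KO at 30.6 and 48.3 FPKM and then at 19.95 and 20.95 FPKM. The 6 day-4 libraries lay within 19.95 to 26.0 FPKM, below all day-0 libraries. Ndufb4 fell by 1.99 ± 0.27 in WT, 1.17 ± 0.26 in S23DKO and 1.0 ± 0.26 in S4KO on the log2 scale. Atp5b, the catalytic beta subunit of the ATP synthase, stood at 1381 and 1351 FPKM in WT at day 0 and at 768 and 846 FPKM at day 4. Its values were 1173 and 1153 and then 702 and 694 FPKM in S23DKO, and 1240 and 1277 and then 910 and 741 FPKM in S4KO. It fell by 0.96 ± 0.18 in WT, 0.82 in S23DKO and 0.66 ± 0.18 in S4KO, with no overlap of the days in any genotype. Sdhc stood at 36.2 and 42.6 and then at 25.9 and 22.8 FPKM in S23DKO, and at 39.6 and 40.3 and then at 26.0 and 24.0 FPKM in S4KO, falls of 0.83 and 0.69 ± 0.18.

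The further genes that fell in S23DKO included Cox7b, a small complex IV subunit (-1.07 ± 0.26 on the log2 scale), Atp5l, subunit g of the ATP synthase (-1.06 ± 0.24), and Ndufb6, an accessory subunit of complex I (-1.02 ± 0.25). The further genes that fell in S4KO were Cox5a, which binds the complex IV core (-0.83 ± 0.23), and Ndufa9, a complex I subunit near the ubiquinone site (-0.79 ± 0.22). These knockout lists were small and rested on single libraries. With 1 library left out the number of nuclear members that were lower ran from 0 to 14 in S23DKO, being 0 without either S23DKO day-4 library, and from 0 to 10 in S4KO, while the medians stayed within -0.59 to -0.53 and -0.70 to -0.30.

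At day 0 the nuclear members were lower in both knockouts than in WT. In S23DKO 68 of 84 were lower (over all genes 14.4% lower and 16.7% higher), with a median of -1.18 and 82 genes below 0. These were 33 genes of complex I, 2 of complex II, 7 of complex III, 14 of complex IV and 12 of complex V. In S4KO 56 of 84 were lower (over all genes 9.14% lower and 10.5% higher), with a median of -1.14 and 83 genes below 0. These were 27 genes of complex I, 1 of complex II, 5 of complex III, 10 of complex IV and 13 of complex V. Both comparisons use the same 2 WT libraries, which also enter the WT comparison of the days.

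Subunits of the stalk of the ATP synthase were among the lowest. Atp5d, the delta subunit, stood at 365 and 362 FPKM in WT at day 0, at 98.4 and 68.4 FPKM in S23DKO and at 63.0 and 112 FPKM in S4KO. Its log2 difference from WT was -2.03 ± 0.52 in S23DKO and -2.01 ± 0.52 in S4KO. Atp5e, the epsilon subunit, stood at 530 and 298 FPKM in WT, 106 and 168 FPKM in S23DKO and 82.9 and 133 FPKM in S4KO, and was lower in S4KO by 2.08 ± 0.34 on the log2 scale. In both genes each knockout library lay below both WT libraries. Uqcrq, with 110 and 86.8 FPKM in S23DKO, had a log2 difference of -2.06 ± 0.51, and Ndufb7, a complex I subunit facing the intermembrane space, one of -2.0 ± 0.55. Ndufs7, a core subunit that carries the last iron-sulfur cluster of complex I, stood at 164 and 149 FPKM in WT, 56.7 and 35.7 FPKM in S23DKO and 28.0 and 66.6 FPKM in S4KO, with log2 differences of -1.95 ± 0.59 and -1.90 ± 0.59. Uqcr11 was lower in S4KO by 2.03 ± 0.54 on the log2 scale.

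These day-0 differences moved with the same length trend and rested on single libraries. Median differences of all genes were -0.55 at up to 500 bases and 0.76 above 5000 bases for S23DKO, and -0.65 and 0.64 for S4KO. The lowest class was that of 500 to 1000 bases, with -0.78 for S23DKO and -0.80 for S4KO. It holds 50 nuclear members, whose medians were -1.20 and -1.21. With the length and GC correction 66 nuclear members (exon length, median -0.91) and 52 (implied length, median -0.70) were lower in S23DKO, and 51 (-0.79) and 35 (-0.58) in S4KO. Over all genes these corrected medians were -0.08 and -0.09 in S23DKO, and 0.0 with either length in S4KO. Without the first WT day-0 library the numbers were 15 in S23DKO and 0 in S4KO. Without the second S23DKO day-0 library the S23DKO number was 35, and without the first S4KO day-0 library the S4KO number was 0, with medians over all libraries left out within -1.41 to -0.89 and -1.39 to -0.86.

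At day 4 few nuclear members were called between the genotypes. In S23DKO 2 were higher and 2 lower than in WT (over all genes 7.21% higher and 8.0% lower), with a median of -0.10 (0.06 by limma on FPKM), and 53 of 84 lay below 0. In S4KO 1 gene, Cox6a2, was higher (over all genes 0.679% higher and 1.05% lower), with a median of -0.01. By the length classes the day-4 medians of all genes in S23DKO against WT lay within -0.10 to 0.07. Of S4KO against WT at day 4, edgeR called no lower nuclear member, 1 had an unadjusted p below 0.05, and DESeq2 called 0.

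Of the nuclear members called between S23DKO and WT, Atp5a1 was called at both days under every alternative; it encodes the alpha subunit of the ATP synthase, partner of the beta subunit in its catalytic head. It stood at 607 and 656 FPKM in WT at day 0 and at 270 and 270 FPKM in S23DKO. At day 4 it stood at 397 and 512 FPKM in WT and at 192 and 183 FPKM in S23DKO. In S4KO it stood at 473 and 512 FPKM at day 0 and at 398 and 401 FPKM at day 4. The 4 S23DKO libraries lay below the 8 others at both days. Against WT the log2 difference in S23DKO was -1.45 ± 0.19 at day 0 (adjusted p = 0.001085, edgeR) and -1.36 ± 0.19 at day 4 (adjusted p = 0.00109, edgeR), with 21 alternatives run at each day. Atp5b, its partner, was called at neither day, with log2 differences of -0.45 at day 0 and -0.31 at day 4. Atp5a1 lies on chromosome 18, as does Smad2. Among the 11 tested genes after Smad2, up to and including Atp5a1 itself, the median log2 difference in S4KO at day 0 was -0.25. In S23DKO the median of these genes was -1.28 at day 0 and -1.29 at day 4. Haus1, whose gene model overlaps that of Atp5a1, was lower too, and since the strand setting of the counting is not given, reads of both cannot be told apart where they overlap.

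Cox4i2, a form of complex IV subunit 4 known from lung and from low oxygen, was higher in S23DKO than in WT at day 4. It stood at 2.09 and 3.25 FPKM in WT and at 13.1 and 13.6 FPKM in S23DKO at day 4, a log2 difference of 2.21 ± 0.55 (adjusted p = 0.02047, edgeR). The 2 S23DKO day-4 libraries were the highest of all 12, the next being 7.70 FPKM. The call was lost without the first WT day-4 library or either S23DKO day-4 library. Ndufs4, an accessory complex I subunit, was lower in S23DKO, with 60.9 and 54.4 FPKM against 102 and 95.7 FPKM in WT, a log2 difference of -0.90 ± 0.21, and its call was lost without the same 3 libraries. Cox6a2, the heart and muscle form of the subunit that Cox6a1 encodes, had 0 counts in both WT day-4 libraries, and with a floor of 3 counts over the group it was at least 4.64-fold higher in S23DKO (14 counts) and at least 19.6-fold higher in S4KO (46 counts). Its call was lost in 10 of 21 alternatives in S23DKO, the replicate block and limma among them, and in 8 of 21 in S4KO, limma among them; the others were libraries left out.

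**Figure D4:**
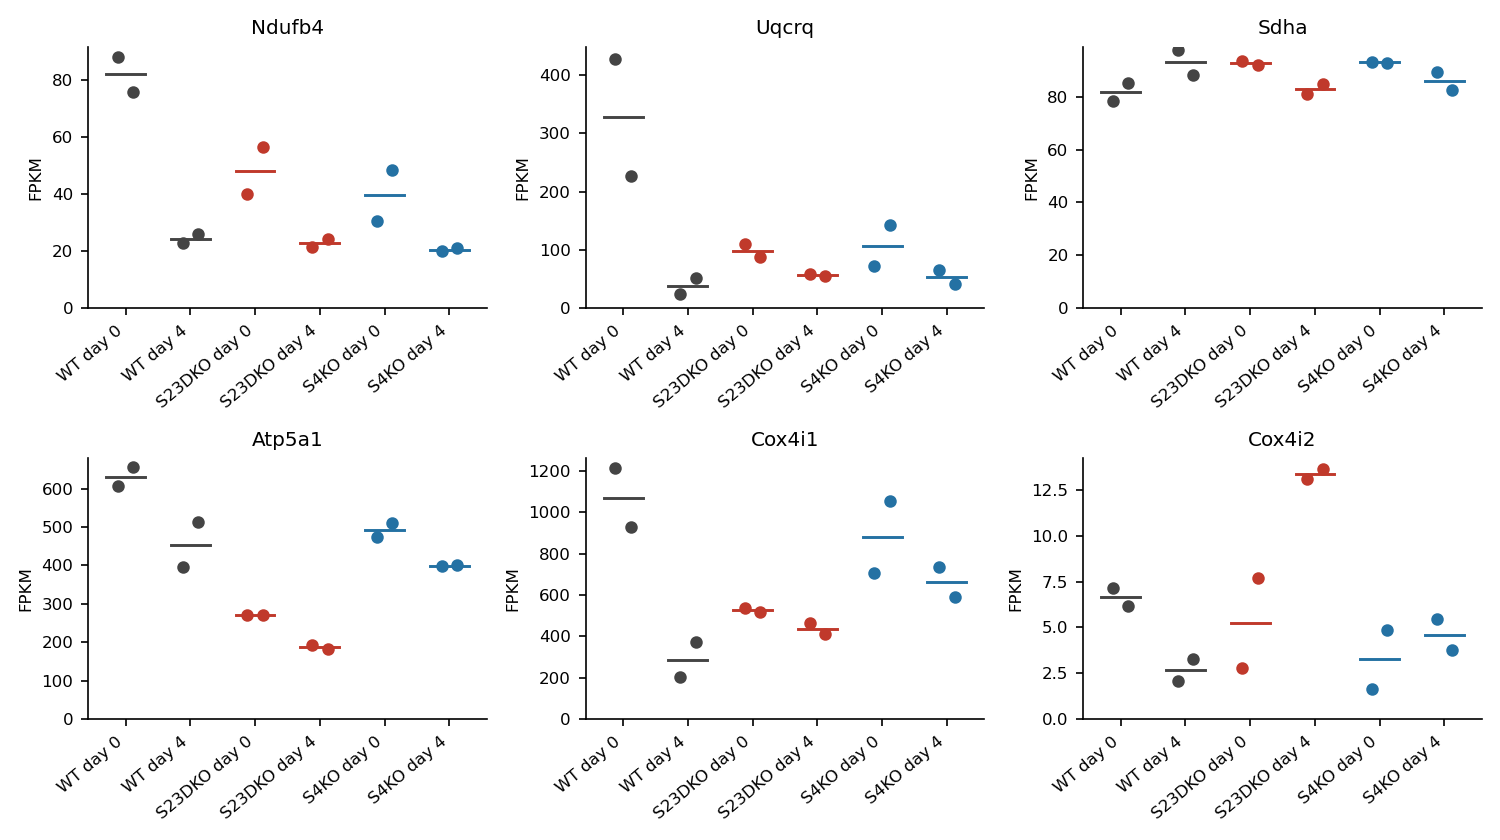
FPKM of Ndufb4, Uqcrq, Sdha, Atp5a1, Cox4i1 and Cox4i2 in each of the 12 libraries, with dots for libraries and horizontal bars for group means. Atp5a1 is lowest in the 4 S23DKO libraries (183 to 270 FPKM), Cox4i2 highest in the 2 S23DKO day-4 libraries, and Sdha stays within 78.5 to 97.9 FPKM.

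Between the 2 knockouts, 1 nuclear member was higher in S4KO than in S23DKO at day 0 (over all genes 2.15% higher and 3.38% lower), with a median of 0.04 (-0.21 without the second S4KO day-0 library), and 1 at day 4 (5.84% higher and 6.45% lower), with a median of 0.13. It was Atp5a1 both times, with log2 differences of 0.93 ± 0.19 at day 0 and 1.19 ± 0.19 at day 4. The day-0 call was lost without the second S23DKO library or either S4KO library of day 0. No mitochondrial mRNA was called by edgeR or by DESeq2 at either day, and 1 had an unadjusted p below 0.05 at day 0.

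Whether the change between the days differed between the genotypes was tested as an interaction. In S23DKO the difference was more positive than in WT for 10 nuclear members (over all genes 1.83% more positive and 4.26% more negative), and the median over the 84 was 1.05. The 4 with the largest values among those with at least 5 CPM in the higher group, which leaves out Cox6a2, were Ndufa8, an accessory complex I subunit (1.81 ± 0.46), Cox4i1, the common form of complex IV subunit 4 (1.75 ± 0.41), Ndufv3, a small subunit of the NADH-oxidising module (1.75 ± 0.37), and Cox5b, a zinc-binding complex IV subunit (1.70 ± 0.35). Cox4i1 stood at 1212 and 927 FPKM in WT at day 0 and at 205 and 370 FPKM at day 4. In S23DKO it stood at 536 and 519 and then at 463 and 410 FPKM, and in S4KO at 707 and 1056 and then at 735 and 590 FPKM. WT was thus the highest at day 0 and the lowest at day 4 on average. Cox4i1 lies on chromosome 8, whose 746 tested genes had a median log2 difference of 0.51 in S4KO against WT at day 0 and 0.58 at day 4. In S4KO edgeR called no nuclear member (over all genes 0.0107% more positive and 0.139% more negative), while 62 had an unadjusted p below 0.05 with a positive difference, DESeq2 called 34, and the median was 1.15. With the implied length and GC correction, the S23DKO number was 1 and the medians 0.45 and 0.59.

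The mitochondrial mRNAs are made from shared precursors, and some of them overlap in the genome. Of these, 2 pairs are kept as joint mRNAs, mt-Nd4l with mt-Nd4 and mt-Atp8 with mt-Atp6.  The short first frames of both pairs are shown because they had the lowest values in the WT day-0 libraries relative to their partners, from the mitochondrial genome of GRCm38, plus strand, with the bases shared with the partner in capitals. The mt-Nd4l frame is chrM:9877-10173, 297 bases of which 7 lie in mt-Nd4, and the mt-Atp8 frame is chrM:7766-7969, 204 bases of which 43 lie in mt-Atp6.
mt-Nd4l: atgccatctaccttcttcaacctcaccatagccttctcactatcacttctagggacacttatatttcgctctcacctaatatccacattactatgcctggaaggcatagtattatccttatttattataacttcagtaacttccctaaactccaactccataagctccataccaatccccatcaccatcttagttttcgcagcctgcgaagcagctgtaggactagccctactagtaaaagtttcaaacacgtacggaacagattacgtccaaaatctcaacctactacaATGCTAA
mt-Atp8: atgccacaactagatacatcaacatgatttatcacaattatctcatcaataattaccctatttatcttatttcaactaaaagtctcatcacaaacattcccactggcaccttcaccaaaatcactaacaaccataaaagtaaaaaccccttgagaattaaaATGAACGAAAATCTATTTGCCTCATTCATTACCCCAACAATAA

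In WT 4 of the 13 mitochondrial mRNAs rose between the days, a share near the 23.8% of all genes that rose, and none fell by edgeR, at an unadjusted p below 0.05 or by DESeq2. The median log2 difference was 0.49, with 8 of 13 above 0. Without the first WT day-4 library it was 0.04, with 1 mRNA higher and 1 lower, and without the second it was 0.86, with 6 higher. Without the first WT day-0 library 1 was higher. mt-Nd4l, a membrane subunit of complex I, stood at 75.0 and 146 FPKM in WT at day 0 and at 1011 and 627 FPKM at day 4. In the knockouts it lay between 435 and 972 FPKM in all 8 libraries, so the 2 WT day-0 libraries were alone at the low end. It rose by 2.69 ± 0.34 on the log2 scale in WT (adjusted p = 0.0003266, edgeR), a call that held in the 20 alternatives that hold mitochondrial genes. The calls of mt-Atp8, mt-Nd4 and mt-Nd1 in WT were lost without the first WT library of day 0 or that of day 4, and that of mt-Nd1 also without 3 further libraries. mt-Atp8, a small subunit of the ATP synthase membrane part, stood at 899 and 1633 FPKM at day 0 and at 4650 and 2107 FPKM at day 4 and rose by 1.21 ± 0.37. mt-Nd4, a proton-pumping complex I subunit, went from 642 and 800 FPKM to 1724 and 1191 FPKM and rose by 0.80 ± 0.22. mt-Nd1, next to the ubiquinone site of complex I, went from 1316 and 1580 FPKM to 3766 and 2603 FPKM and rose by 0.92 ± 0.31. In these 4 genes the days did not overlap.

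The other 9 mitochondrial mRNAs were not called in WT. Their log2 differences were 0.76 for mt-Nd5 and 0.49 for mt-Nd2, both proton-pumping complex I subunits, 0.68 for mt-Co1, the catalytic subunit of complex IV, and 0.30 for mt-Cytb, the cytochrome b of complex III. They were -0.33 for mt-Co2 and -0.44 for mt-Co3, the other complex IV core subunits, -0.37 for mt-Atp6, the proton channel subunit of the ATP synthase, -0.67 for mt-Nd6 and -0.93 for mt-Nd3, membrane subunits of complex I. mt-Nd6 is the single member transcribed from the light strand, so with the strand of counting not given, reads antisense to it may be counted with it.

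The members of a pair did not move alike. The ratio of mt-Nd4l to mt-Nd4 in FPKM was 0.117 and 0.183 in WT at day 0 and lay between 0.402 and 0.659 in the other 10 libraries. The ratio of mt-Atp8 to mt-Atp6 was 0.253 and 0.480 in WT at day 0 and lay between 0.870 and 1.36 in the others. In both pairs the WT day-0 libraries lay below all others. Short nuclear transcripts were highest in these same 2 libraries, whereas mt-Nd4l and mt-Atp8 were lowest in them. mt-Nd3, also short (348 bases), went the other way. Its mean was 274 CPM in WT at day 0 and 131 to 228 CPM in the other groups, with overlap between libraries of WT at day 0 and at day 4. How reads of a joint mRNA were shared between its frames is not given in the sources used here.

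**Figure D5:**
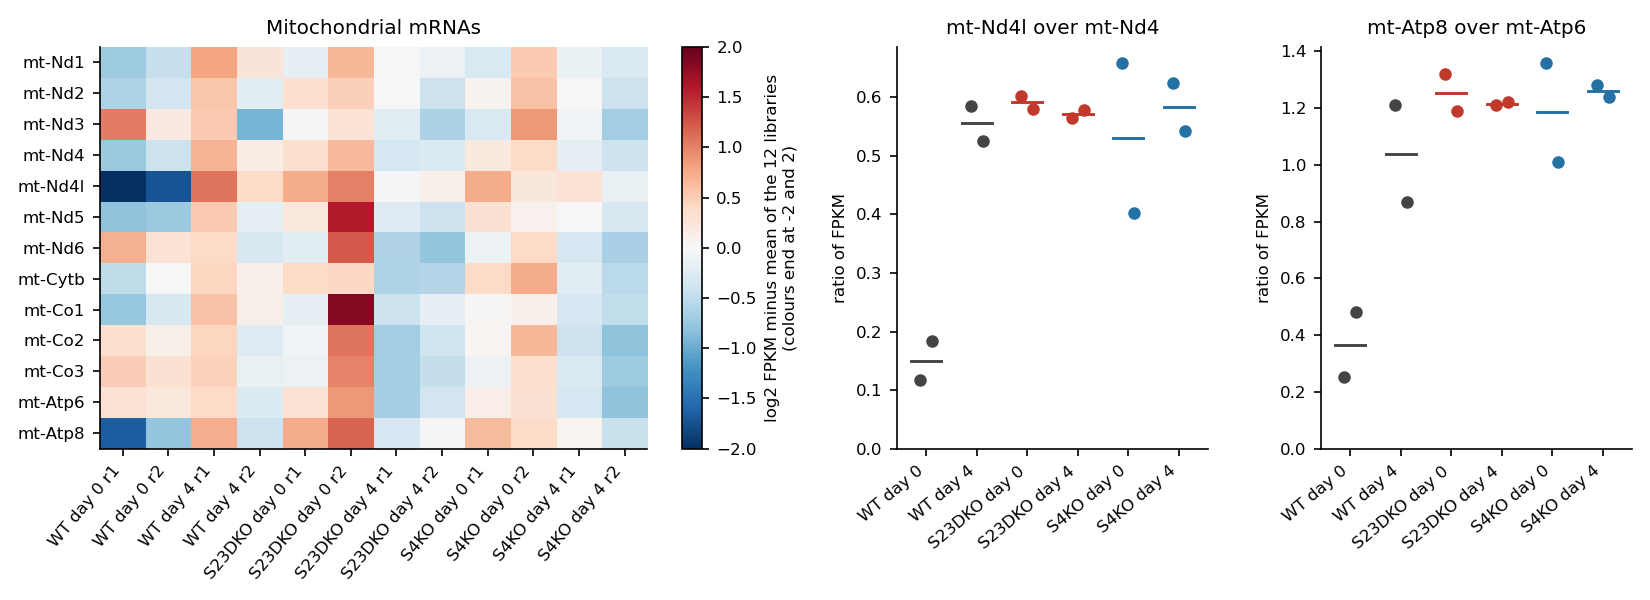
Log2 FPKM of each of the 13 mitochondrial mRNAs (rows) in each library (columns), less the mean of that mRNA over the 12 libraries; colours end at -2 and 2. mt-Nd4l and mt-Atp8 are lowest in the 2 WT day-0 libraries, and most mRNAs are high in the second S23DKO day-0 library.

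In the knockouts all 13 mitochondrial mRNAs lay below 0 between the days, as 5 of 13 did in WT. In S23DKO 4 of 13 fell, against 3.46% of all genes, and the median was -1.19. The number was 0 without either S23DKO day-4 library, 1 without the second and 5 without the first S23DKO day-0 library, and 2 without either WT day-0 library. These were mt-Nd5 (-1.47), mt-Atp6 (-1.21), mt-Cytb (-1.09) and mt-Nd4 (-0.89). In S4KO mt-Cytb fell (-1.0 ± 0.22), 1 of 13 against 3.81% of all genes, a call lost without the second S4KO library of either day, and the median was -0.67. mt-Cytb stood at 2309 and 2366 FPKM in S23DKO at day 0 and at 1151 and 1179 FPKM at day 4. In S4KO it stood at 2332 and 2978 and then at 1536 and 1215 FPKM, with the days well apart in both knockouts, whereas in WT it stood at 1244 and 1759 and then at 2384 and 1900 FPKM. The interaction was called for 5 mitochondrial mRNAs in S23DKO, all more negative than in WT, with a median of -1.37 over the 13. In S4KO it was called for 1, mt-Nd4l, with a median of -1.17. Without 1 library the median in S23DKO between the days lay between -1.43 and -0.66.

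Against WT at day 0, 5 of 13 mitochondrial mRNAs were higher in S23DKO (median 0.66) and 3 in S4KO (median 0.57), against 16.7% and 10.5% of all genes. Without the first WT day-0 library the numbers were 1 and 0, and without the second S23DKO day-0 library the S23DKO number was 2 (median 0.26). mt-Nd4l had log2 differences of 2.79 ± 0.34 and 2.47 ± 0.34, and mt-Atp8 of 1.90 and 1.5. mt-Nd4 (0.83 and 0.69) was the third in both. mt-Nd5 (1.59) and mt-Co1 (1.42) were higher in S23DKO, and the calls of mt-Nd4, mt-Nd5 and mt-Co1 in S23DKO were lost without the second S23DKO day-0 library or either WT day-0 library. mt-Co1 stood at 3865 and 5214 FPKM in WT, at 5718 and 23150 FPKM in S23DKO and at 6644 and 7022 FPKM in S4KO, so its S23DKO mean was set by 1 library. At day 4, 2 of 13 were lower in S23DKO than in WT, against 8.0% of all genes, and all 13 lay below 0 (median -0.76). They were mt-Cytb (-0.98) and mt-Nd4 (-0.86), and both calls were lost without the first WT day-4 library or either S23DKO day-4 library. In S4KO all 13 lay below 0 (median -0.69); edgeR called 0, 4 had an unadjusted p below 0.05, and DESeq2 called 1.

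Several complex IV subunits and the c subunit of the ATP synthase have genes for tissue-specific or alternative forms, and in these cells the common forms led. Cox4i2 made 0.232% to 3.22% of the summed Cox4 FPKM, with the highest shares, 2.74% and 3.22%, in S23DKO at day 4. Cox6a2 made at most 1.11% of the Cox6a FPKM, Cox7b2 at most 1.23% of the Cox7b FPKM, and Cox8c and Cox8b at most 0.289% and 0.121% of their pairs with Cox8a. The exceptions were Cox6b2, known from testis, with 20% to 45.1% of the Cox6b FPKM, Cox7a1, the heart and muscle form, with 5.32% to 15.8% of its pair with Cox7a2, and Ndufa4l2, known to be induced by low oxygen, with 6.93% to 25.4% of its pair with Ndufa4. In none of these 3 did the share separate the days in all 3 genotypes. Cox6a2 fell in WT from 123 counts over the 2 day-0 libraries to 0, at least 42.6-fold lower with a floor of 3 counts over the group.

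The 3 genes of the c subunit encode the same mature protein behind different import sequences. Atp5g1 made 17.6% and 17.4% of their summed FPKM in WT at day 0 and 6.11% and 10.7% at day 4. In S23DKO it made 14.2% and 13% and then 8.24% and 10.5%, and in S4KO 15.0% and 15.3% and then 11.1% and 7.13%. The share was lower at day 4 in each genotype with no overlap of the days. Atp5g3 had the largest share of the 3 genes in all 12 libraries, 50.8% to 69.5%, and Atp5g2 lay at 24.4% to 35.5%. In WT Atp5g1 fell by 2.15 ± 0.34, Atp5g2 by 1.13 ± 0.27 and Atp5g3 by 0.91 ± 0.23 on the log2 scale. Of the 18 tested genes of all such forms and their common partners, 17 fell in WT, with a median of -1.70, close to that of all nuclear members.

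By level per length, the mitochondrial mRNAs were above nearly all nuclear members. Mean FPKM over the 12 libraries ran from 7412 for mt-Co1 to 536 for mt-Nd3. Among nuclear members the highest of each complex were Atp5b (1020 FPKM), Cox4i1 (644 FPKM), Ndufa7, an accessory complex I subunit (331 FPKM), Uqcrh (251 FPKM) and Sdhd (108 FPKM). The lowest that passed the filter were Uqcrfs1, the Rieske iron-sulfur protein of complex III (81.2 FPKM), Atp5g1 (71.5 FPKM), Ndufc1, a small complex I subunit (34.9 FPKM), Sdhc (32.6 FPKM) and Cox8c (0.48 FPKM). Medians of the members were 76.0 FPKM in complex I, 90.1 in complex II, 141 in complex III, 175 in complex IV and 173 in complex V. Atp5b and Sdhc, at the high and the low end of their complexes, both fell in all 3 genotypes. Their calls in S4KO were lost in 11 and 9 of 21 alternatives.

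Genes around the machinery were described by lists, whose counts in WT between the days stand against 19.9% of all genes that fell and 23.8% that rose. These counts rest on the same 2 WT day-0 libraries as those of the members, and the part of transcript length in them was not tested. In WT between the days 27 of 49 assembly factors fell and none rose (median -0.91), among them Fmc1, which helps to assemble the ATP synthase (-2.68 ± 0.41), Ndufaf8 (-2.23 ± 0.68), needed for complex I, and Uqcc3 (-2.10 ± 0.39), needed for complex III. Of 78 mitochondrial ribosomal proteins 67 fell (median -1.19), and of 16 genes of electron carriers and ubiquinone synthesis 8 fell (median -0.73), such as Coq8a (-2.06 ± 0.40) and Cyc1, the cytochrome c1 of complex III (-1.28 ± 0.25). Of 14 citrate cycle genes 6 fell and 1 rose (median -0.52), and Mdh2, the mitochondrial malate dehydrogenase, had -0.99 ± 0.27. Genes of mitochondrial DNA replication and transcription had 1 higher and 3 lower of 15 (median -0.17), and those of mitochondrial RNA processing 2 higher and 4 lower of 18 (median -0.08), shares near or below those of all genes. Of 13 transcription regulators of the machinery 2 rose, a share below that of all genes, among them Yy1 (0.77 ± 0.21), while Ppargc1a, a coactivator of respiration genes in muscle and fat, stood at 0 to 0.285 CPM in all libraries.

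Polg, the catalytic subunit of the mitochondrial DNA polymerase, rose in WT, from 114 and 133 CPM at day 0 to 262 and 395 CPM at day 4 (log2 difference 1.19 ± 0.22). It stood at 172 and 215 and then at 262 and 262 CPM in S23DKO, and at 92.3 and 89.5 and then at 88.0 and 96.8 CPM in S4KO. The 4 S4KO libraries were below the 8 others. Against WT at day 4 it was lower in S4KO, with a log2 difference of -1.85 ± 0.22, and it was the single gene of the mitochondrial DNA list that was called there. At day 0, 26 of 49 assembly factors and 68 of 78 mitochondrial ribosomal proteins were lower in S23DKO than in WT (medians -0.81 and -1.16), against 14.4% of all genes. In S4KO 13 and 55 were lower, against 9.14% of all genes, and 1 assembly factor was higher (medians -0.54 and -0.93). Both day-0 comparisons use the same 2 WT libraries, and the part of transcript length in them was not tested for these lists.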

How the data were processed

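The labels' protocols give TruSeq RNA v2 libraries of 500 ng RNA, with integrity numbers above 9.5. The authors deposited a table of counts, whole numbers per Ensembl gene with no normalization recorded, and a table of FPKM values per gene symbol. The submitters' processing notes list mm10, StringTie, Cufflinks and DESeq2 and give no version or role; the aligner, annotation and strand setting are not given in the sources used here. A count of 1 occurred 4966 times and a count of 2 occurred 6989 times, so the values may not be plain tallies of fragments. Samples were grouped by their titles, and no column was left unmapped. Symbols were joined to gene IDs through GENCODE M21, and 1 member (Atp5md) through a RefSeq synonym. Mitochondrial rRNAs and tRNAs were not analysed here.

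The main test was the quasi-likelihood test of edgeR on counts (edgeR 4.0.16, R 4.3.3; TMM, filterByExpr, 18693 genes kept, all 12 libraries, 1 coefficient per group), adjusted by Benjamini-Hochberg over all genes and called below 0.05. Standard errors were taken as the absolute log2 difference over the root of the F statistic. The fitting script was tested on simulated counts. CPM are counts scaled to the library total. The alternatives were no filter, RLE factors, DESeq2 1.42.0, limma 3.58.1 on log2(FPKM + 1), a replicate block, a length and GC correction (spline with 5 degrees of freedom per library), both together, mitochondrial genes left out, and each library left out. The correction with implied length (counts over FPKM) was added after seeing the data.

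Genes were named by rule: all mitochondrial mRNAs; per comparison the 4 largest rises and 4 largest drops among called nuclear members free of overlap with at least 5 CPM in the higher group; the highest and lowest member of each complex; all alternative forms; up to 3 called genes of each other list. Members not called in WT, the genes that fell in all 3 genotypes, Polg and the neighbours of Atp5a1 were picked with their values in view. The members and lists were chosen with earlier results of these data known.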

Additional observations from a re-analysis of the deposited data

Results flagged for a closer look

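The change between day 0 and day 4 differed between S23DKO and WT, by the edgeR test of the interaction, for 15 members, and between S4KO and WT for 1. In S23DKO these were 10 of 84 nuclear members and 5 of 13 mitochondrial mRNAs, and in S4KO 1 of 13 mitochondrial mRNAs. Over all genes 1.83% were more positive and 4.26% more negative in S23DKO, and 0.0107% and 0.139% in S4KO. The values below are differences of log2 fold changes, knockout less WT, and rest on the same 2 WT day-0 libraries, in which short nuclear transcripts were high and mt-Nd4l and mt-Atp8 low.

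In S23DKO the nuclear differences were positive. In complex I they were 1.81 for Ndufa8, 1.75 for Ndufv3, 1.54 for Ndufb10, 1.43 for Ndufb9, 1.4 for Ndufa1 and 1.39 for Ndufs5. In complex IV they were 1.75 for Cox4i1, 1.7 for Cox5b and 8.56 for Cox6a2, the last against a WT day-4 group at 0 counts, so that its size is set by the fit. In complex V it was 1.39 for Atp5o, the oligomycin sensitivity subunit.

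The mitochondrial differences were negative. In S23DKO they were -3.62 for mt-Nd4l, -2.45 for mt-Atp8, -2.23 for mt-Nd5, -1.69 for mt-Nd4 and -1.39 for mt-Cytb. In S4KO the difference was -3.17 for mt-Nd4l.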

How the results depend on the processing

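No called single-gene result changed sign under an alternative. Medians near 0 did: for S4KO against S23DKO the nuclear median of day 0 (0.04) was -0.21 without S4KO replicate 2 and -0.02 by limma, the mitochondrial one of day 0 (-0.32) was 0.21 without S23DKO replicate 2 and that of day 4 (0.10) -0.16 without S4KO replicate 1. Against WT at day 4 the nuclear median of S23DKO (-0.10) was 0.06 by limma, and that of S4KO (-0.01) lay between -0.045 and 0.042. Of the single-gene results 3139 kept their side of the threshold, 219 lost a call and 111 gained one. What changed was the number of called members, and the causes of these moves were not tested. In WT between the days the lower nuclear members numbered 56 to 79 over all settings. Corrected for length and GC, the numbers were 20 lower and 1 higher nuclear members in S23DKO between the days, 10 lower nuclear and 3 lower mitochondrial in S4KO, 11 lower nuclear and 6 lower mitochondrial for S23DKO against WT at day 4, 1 lower mitochondrial for S23DKO and 1 higher mitochondrial for S4KO against WT at day 0, 2 higher nuclear for S4KO against WT at day 4, 5 and 10 higher nuclear for S4KO against S23DKO at days 0 and 4, and 3 in the S4KO interaction. With implied length, which was added after seeing the data, they were 7 lower mitochondrial and 1 higher nuclear in S23DKO between the days, 8 and 3 lower in S4KO, 14 and 4 lower for S23DKO against WT at day 4, 35 lower and 1 higher nuclear for S4KO against WT at day 0, 1 lower mitochondrial and 2 higher nuclear at day 4, 5 and 13 higher for S4KO against S23DKO, and 1 in the S23DKO interaction.

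Without a filter the interactions gave 32 nuclear and 8 mitochondrial members in S23DKO and 19 and 5 in S4KO, and lower mitochondrial mRNAs between the days numbered 10 in S23DKO and 3 in S4KO. For S4KO it gave 2 higher nuclear members against WT at day 4, 2 against S23DKO at day 0 and 1 lower at day 4. DESeq2 gave 42 higher, 1 lower and 8 mitochondrial in the S23DKO interaction, 34 and 4 in that of S4KO, 20 and 9 lower in S23DKO between the days, 10 and 4 in S4KO, 2 higher nuclear and 1 lower mitochondrial for S4KO against WT at day 4, and 2 higher and 1 lower for S4KO against S23DKO at days 0 and 4. limma on FPKM gave 18 higher and 1 lower in the S23DKO interaction, 1 and 2 in that of S4KO, 3 lower in S4KO between the days, and 1 higher for each knockout against WT at day 0, for S23DKO at day 4, and 1 lower for S4KO against S23DKO at day 4. Without mitochondrial genes the S23DKO interaction gave 16. The ratio of mitochondrial to nuclear totals in S4KO at day 0, 2.48 by counts, was 2.70 by summed FPKM.

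Replicate numbers did not pair the libraries (correlations of same-numbered deviations -0.147 to 0.339). With a replicate block the lower nuclear members numbered 78 in WT between the days, 65 and 54 in S23DKO and S4KO against WT at day 0, and 3 in S4KO between the days, with 1 higher for S23DKO against WT at day 4 and 6 in the S23DKO interaction. With the block and the length and GC correction there were 20 lower and 1 higher nuclear and 7 lower mitochondrial in S23DKO between the days, 9 and 3 lower in S4KO, 10 and 5 lower for S23DKO against WT at day 4, 2 higher for S4KO against WT at day 4, 4 and 7 higher for S4KO against S23DKO, and 1 in the S4KO interaction.

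With 1 library left out, where the lone library of its group is taken to vary like the others, the ranges were as follows. In WT between the days 59 to 78 lower nuclear, 1 to 6 higher and 0 to 1 lower mitochondrial members were called. In S23DKO between the days 0 to 14 and 0 to 7 were lower, and in S4KO 0 to 10 and 0 to 3. Against WT at day 0, S23DKO had 15 to 70 lower nuclear and 1 to 6 higher mitochondrial members, and S4KO 0 to 63 and 0 to 4. At day 4 S23DKO had 0 to 5 higher and 1 to 3 lower nuclear and 0 to 5 lower mitochondrial members, and S4KO 0 to 1 higher nuclear and 0 to 1 lower mitochondrial ones. For S4KO against S23DKO 0 to 1 nuclear members were higher and 0 to 2 mitochondrial lower at day 0, and 0 to 1 nuclear were lower at day 4. The interactions gave 0 to 35 higher and 0 to 1 lower nuclear and 1 to 9 lower mitochondrial members in S23DKO, and 0 to 33 and 0 to 6 in S4KO. The alternative without mitochondrial rRNAs and tRNAs was not run, since the members included none. With 2 libraries per group, differences may be missed, large ones included.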

Other observations

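Genes between Smad2 and Atp5a1 on chromosome 18 were low in S23DKO too. The 11 tested genes after Smad2 are counted here up to and including Atp5a1 itself. All 11 lay below 0 in S23DKO against WT at day 0, and 7 were called lower, against 14.4% of all genes. At day 4, 9 lay below 0 and 8 were called lower, against 8.0% of all genes. They included Haus1, an augmin subunit of the spindle (-2.30 at day 0), Katnal2, a katanin-like protein (-1.77), Ier3ip1 (-1.28), Hdhd2 (-1.05) and Pias2, a SUMO ligase (-1.01). In S4KO at day 0, 1 of the 11 was lower. Among the next 5 tested genes beyond Atp5a1, 1 was lower in S23DKO at day 0 and 2 at day 4. On the other side of Smad2, genes were called higher in S23DKO at day 0. These were Ctif (1.44), Zbtb7c (1.91), Gm10532 (2.42) and AC107768.1 (7.01), while Smad7 (-0.81) was not called. Over the 357 tested genes of chromosome 18 the median was 0.48 at day 0 and 0.27 at day 4, so the low values were not those of the whole chromosome. The medians of the other autosomes lay lower, between -0.34 and 0.215 at day 0 and between -0.234 and -0.014 at day 4.

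Cox4i1, Ndufb7 and Ndufa13 lie on chromosome 8, whose 746 tested genes had a median log2 difference of 0.51 at day 0 and 0.58 at day 4 in S4KO against WT, and of 0.69 and 0.67 against S23DKO. The medians of the other autosomes in S4KO against WT at day 4 lay between -0.33 and 0.28. The part of chromosome copy number in the values of these 3 members was not tested.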
